A study of Mus musculus with 8 samples.

Results

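The MHC class II genes of mouse liver were followed in 8 ethanol-fed female mice that differed in hepatocyte Ripk1. Members were the rows of the deposited gene count table whose GENCODE M21 symbol is H2-Aa, H2-Ab1, H2-Eb1, H2-DMa, H2-DMb1, H2-DMb2, Cd74, Ciita or Ctss, which gave 9 of 55335 genes. The list holds the peptide-binding chains, the peptide editor H2-DM, the invariant chain with the protease that cuts it, and the transcriptional co-activator. All 9 passed the filter on low counts.

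Mice 28, 34, 37 and 39 are labelled Ripk1-hepKO, a knockout of Ripk1 specific to hepatocytes, and mice 29, 32, 40 and 41 are labelled Ripk1-Con, the controls. RIPK1 is a kinase and scaffold below death receptors. Both groups received ethanol by the NIAAA chronic-plus-binge protocol, so mice without ethanol were not analysed here. The strain, the age, the floxed allele, the Cre driver and the genotype at Ripk1 of the controls are not given in the sources used here.

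MHC class II molecules are pairs of an alpha and a beta chain that carry peptides of engulfed material to the cell surface, where CD4+ T cells read them. In liver they are known mainly from dendritic cells, B cells, Kupffer cells and other macrophages. The invariant chain CD74 fills the groove while the pair is built, cathepsin S trims it away, and H2-DM exchanges its last fragment for a peptide. The co-activator CIITA sets the transcription of the chains, of H2-DM and of the invariant chain. It does not bind DNA itself, but joins RFX, CREB and NF-Y proteins that sit on a shared promoter module of X, X2 and Y boxes.

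Of the 9 genes, 6 lie together on chromosome 17 between 34119541 and 34316674 on GRCm38, a stretch of 197.1 kb. In order along it come H2-DMa, H2-DMb2, H2-DMb1, H2-Ab1, H2-Aa and H2-Eb1, of which H2-Aa alone is on the minus strand. Ciita lies on chromosome 16 (10480059 to 10528418) and Ctss on chromosome 3 (95526786 to 95556403), both on the plus strand, and Cd74 lies on another chromosome. All 9 are annotated as protein-coding.

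Promoter sequences are shown for a chain of each kind and for the paired DM beta genes, since class II genes are known to share a promoter module. The RefSeq promoter table (GRCm38.p6) matched 6 of the 9 members, and the windows of H2-DMa and Ctss are not shown. Each line gives the 150 bases before the RefSeq start, read 5′ to 3′ on the gene's strand. Capitals mark the Y box core (CCAAT, or ATTGG on the other strand) and the stretch that matches the X box on all its 8 fixed letters. The windows are chr17:34287824-34287973 (minus) for H2-Aa, chr17:34305717-34305866 (plus) for H2-Eb1, chr17:34153041-34153190 (plus) for H2-DMb1 and chr17:34145099-34145248 (plus) for H2-DMb2.
H2-Aa: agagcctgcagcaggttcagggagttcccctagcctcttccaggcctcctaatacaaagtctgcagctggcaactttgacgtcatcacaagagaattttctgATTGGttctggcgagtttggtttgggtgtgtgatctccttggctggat
H2-Eb1: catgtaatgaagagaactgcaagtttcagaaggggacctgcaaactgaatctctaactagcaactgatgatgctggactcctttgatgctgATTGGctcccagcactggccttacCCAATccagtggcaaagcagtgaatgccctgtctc
H2-DMb1: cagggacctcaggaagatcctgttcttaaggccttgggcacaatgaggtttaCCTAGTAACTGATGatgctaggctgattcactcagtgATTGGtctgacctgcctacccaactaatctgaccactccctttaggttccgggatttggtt
H2-DMb2: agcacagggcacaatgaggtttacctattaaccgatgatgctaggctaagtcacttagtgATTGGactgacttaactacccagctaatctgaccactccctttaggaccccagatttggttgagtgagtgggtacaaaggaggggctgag

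Each of these windows held a Y box core, and 37.4% of the 32851 promoter windows in the table, which also take in bases farther from the start, hold one on either strand. The core began at -48 from the start in H2-Aa, at -59 and -35 in H2-Eb1, at -61 in H2-DMb1 and at -90 in H2-DMb2. Of the members not shown, Ctss held no Y box core, and H2-DMa held a core at -198 in a window and none in another. All letters of the X box were matched only in H2-DMb1, at -98 to -85, and 0.749% of all windows hold a full match. A core of the X2 box (TGACG, in 20.8% of windows) stood in H2-Aa at -74 and overlapped a copy on the other strand at -71. These are matches of letters in a window and not measured binding.

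The closest stretch to the X box in the promoters of H2-DMb1, H2-DMb2 and H2-Eb1 is shown here because those of the paired DM beta genes differ in it. Capitals mark the fixed letters of the motif that were met.
H2-DMb1: CCtaGtaACtgATG
H2-DMb2: CCtattaACcgATG
H2-Eb1: aCtaGcaACtgATG
All 8 fixed letters were met in H2-DMb1 and 7 in each of H2-DMb2, at -127, and H2-Eb1, at -95. Between this stretch and the next Y box core lay 23 bases in H2-DMb1 and H2-DMb2 and 22 in H2-Eb1. In H2-Aa and Ctss, not shown, the closest stretch met 6 of the 8 fixed letters.

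The libraries held 28038390 to 67328158 counts, of which 1031 to 8663 fell on the 9 members. Values below are CPM, a gene's counts scaled to a common library size after TMM scaling. Ripk1 itself stood at 38.1, 35.8, 33.1 and 23.1 CPM across Ripk1-hepKO mice 28, 34, 37 and 39, against 34.3, 53.6, 27.8 and 34.2 CPM across Ripk1-Con mice 29, 32, 40 and 41 (log2 fold change -0.21 with SE 0.22, adjusted p = 0.866 in edgeR). The groups overlapped, so the level of Ripk1 does not check the labels, and which exons were deleted is not given. The tissue label fits the level of Alb, which averaged 61422 CPM in Ripk1-hepKO and 82554 CPM in Ripk1-Con. Mouse 28 was the highest for 8 members and mouse 40 the lowest for 7, and results are also given without them. Mouse 28 is a knockout and mouse 40 a control, and both were picked by these values. Leaving them out is therefore bound to lower fold changes of members and lists in which they are the extremes.

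Between the genotypes 0 of the 9 members passed an FDR of 0.05 in edgeR's quasi-likelihood test over all genes, and 0 had an unadjusted p under 0.05. Of the 15234 genes tested, 0% passed the FDR and 6.68% had an unadjusted p under 0.05, with 3.86% of all genes tested under it and higher in Ripk1-hepKO. DESeq2's Wald test called 36 genes, none of them a member, and gave 1 member, Cd74, an unadjusted p under 0.05. Leaving out mouse 34, 39 or 32 gave 1 or 2 members such a p in edgeR, from H2-DMa and Cd74. The groups overlapped for all 9 members, while they did not overlap for 4.1% of the genes tested, 2.01% higher and 2.09% lower in Ripk1-hepKO. The log2 fold change, Ripk1-hepKO over Ripk1-Con, lay above 0 for 8 members, against 51.8% of all genes, and its median was 0.50 for the members and 0.01 for all genes tested. Without mice 28 and 40 it lay above 0 for 3 of 9 members, with a median of -0.06. That fall was fixed in direction by the choice of these mice, so it shows only how much of the difference they carry. The members vary together over the mice, so their number is not a number of independent results.

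The peptide-binding chains come first. H2-Aa encodes the alpha chain of the I-A molecule. It stood at 19.8, 10.2, 13.2 and 9.89 CPM across Ripk1-hepKO mice 28, 34, 37 and 39, against 9.81, 12.1, 3.02 and 11.1 CPM across Ripk1-Con mice 29, 32, 40 and 41. Mouse 28 was the highest and mouse 40 the lowest, and the remaining 6 mice overlapped. The means were 13.3 ± 4.59 CPM in Ripk1-hepKO and 9.02 ± 4.10 CPM in Ripk1-Con (SD, n = 4 each), with a log2 difference of 0.55 ± 0.40 between them (SE, edgeR adjusted p = 0.802).

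H2-Ab1 encodes the beta chain that pairs with it. It stood at 15.5, 7.39, 12.3 and 7.53 CPM across Ripk1-hepKO mice 28, 34, 37 and 39, against 8.21, 9.59, 2.89 and 9.57 CPM across Ripk1-Con mice 29, 32, 40 and 41. Mice 28 and 37 lay above every control, and mice 34 and 39 lay below 3 of the 4 controls. The log2 fold change was 0.50 ± 0.38 (SE, edgeR adjusted p = 0.815), with a 95% confidence interval from 77.3% to 257% of the control level.

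H2-Eb1, the beta chain of the I-E molecule, stood at 15.1, 7.19, 8.15 and 6.34 CPM across Ripk1-hepKO mice 28, 34, 37 and 39, against 7.50, 7.03, 3.02 and 8.74 CPM across Ripk1-Con mice 29, 32, 40 and 41. Here 1 knockout mouse, 28, lay above all controls. The log2 fold change was 0.48 ± 0.36 (SE, edgeR adjusted p = 0.809), and it was 0.13 without that mouse. The alpha partner of this chain is annotated as a polymorphic pseudogene, H2-Ea-ps, and it had 7 counts in mouse 32 and 0 in the other 7 mice.

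H2-DM, the editor that exchanges peptides, is built from H2-DMa and a DM beta chain. H2-DMa stood at 3.63, 1.42, 2.94 and 1.35 CPM across Ripk1-hepKO mice 28, 34, 37 and 39, against 1.20, 1.84, 0.930 and 1.45 CPM across Ripk1-Con mice 29, 32, 40 and 41. Mice 28 and 37 stood clear of all other mice, which lay within 0.930 to 1.84 CPM. Its log2 fold change of 0.78 ± 0.38 was the highest among the members and had the smallest p of them (SE, unadjusted p = 0.0687, edgeR adjusted p = 0.759). It was 0.48 without mouse 28 and 0.34 without mice 28 and 40. Of its exon bases, 10.4% lie opposite exons of Brd2 on the other strand, and whether counting used strand is not given, so reads of the pair may mix.

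H2-DMb1, a gene of the DM beta chain, stood at 4.07, 1.59, 2.22 and 1.39 CPM across Ripk1-hepKO mice 28, 34, 37 and 39, against 1.57, 2.18, 0.465 and 1.66 CPM across Ripk1-Con mice 29, 32, 40 and 41. Its range over the mice, 8.75-fold, was the widest of the members. The log2 fold change was 0.64 ± 0.48 (SE, edgeR adjusted p = 0.806), and without mouse 28 it was 0.22. Mouse 40 alone, with 14 counts, set the lower end.

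H2-DMb2 is the other DM beta gene. It stood at 0.733, 0.195, 0.350 and 0.397 CPM across Ripk1-hepKO mice 28, 34, 37 and 39, against 0.713, 0.404, 0.232 and 0.499 CPM across Ripk1-Con mice 29, 32, 40 and 41. Its lowest mouse was 34 and not 40, and mice 28 and 29 stood clear of the rest. The log2 fold change was -0.12 ± 0.48 (SE, edgeR adjusted p = 0.969), the only one of the members below 0, and it turned to 0.11 without mouse 34 and to 0.15 without mouse 29. These values rest on 7 to 40 counts, and the 7 counts of mouse 34 have an exact 95% Poisson interval of 2.81 to 14.4, which covers counting error only.

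The paired DM beta genes are hard to tell apart by reads. Their longest transcripts are 94.6% identical over 1219 aligned bases, and 27.2% of the 50-base windows of H2-DMb1 and 25.2% of those of H2-DMb2 occur unchanged in the other. The split of reads between them is therefore uncertain. As deposited, H2-DMb2 made up 14.8%, 10.6%, 13.2% and 21.6% of the DM beta signal per exon length across Ripk1-hepKO mice 28, 34, 37 and 39, against 30.4%, 15.1%, 32.5% and 22.4% across Ripk1-Con mice 29, 32, 40 and 41. The groups overlapped.

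Cd74, the invariant chain, had the most counts of the members in 6 of 8 mice, and Ctss had the most in the other two. It stood at 51.1, 33.5, 43.2 and 28.1 CPM across Ripk1-hepKO mice 28, 34, 37 and 39, against 24.9, 35.2, 11.9 and 28.05 CPM across Ripk1-Con mice 29, 32, 40 and 41. All 4 knockout mice lay above 3 of the 4 controls, and control mouse 32 lay among them, while mouse 39 at 28.1 CPM was level with control mouse 41. The means were 38.97 ± 10.2 CPM in Ripk1-hepKO and 25.01 ± 9.75 CPM in Ripk1-Con (SD, n = 4 each), with a log2 difference of 0.64 ± 0.31 between them (SE, unadjusted p = 0.0695, edgeR adjusted p = 0.759). It was 0.42 without mouse 40 and 0.25 without mice 28 and 40, and 0.85 without mouse 32.

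Ctss, the cathepsin that trims the invariant chain in antigen-presenting cells, stood at 48.2, 30.2, 29.6 and 21.8 CPM across Ripk1-hepKO mice 28, 34, 37 and 39, against 21.2, 35.5, 11.4 and 32.04 CPM across Ripk1-Con mice 29, 32, 40 and 41. Mouse 28 was again the highest and mouse 40 the lowest. The log2 fold change was 0.37 ± 0.36 (SE, edgeR adjusted p = 0.846), and without mouse 28 it was 0.12. Macrophages make this protease beyond its role in class II, so its counts are not those of class II alone.

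Ciita, the gene of the co-activator, had the log2 fold change nearest to 0 among the members. It stood at 0.642, 0.279, 0.584 and 0.812 CPM across Ripk1-hepKO mice 28, 34, 37 and 39, against 0.656, 0.598, 0.432 and 0.522 CPM across Ripk1-Con mice 29, 32, 40 and 41. Mouse 39 was the highest and mouse 34 the lowest, both of them knockouts. The means were 0.579 ± 0.222 CPM in Ripk1-hepKO and 0.552 ± 0.0971 CPM in Ripk1-Con (SD, n = 4 each), with a log2 difference of 0.08 ± 0.36 between them (SE, edgeR adjusted p = 0.976). Its 95% confidence interval spanned 59.9% to 186% of the level in Ripk1-Con, so the test does not show the groups to be alike. Depth limits this gene, which had 10 to 45 counts a library.

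**Figure D1:**
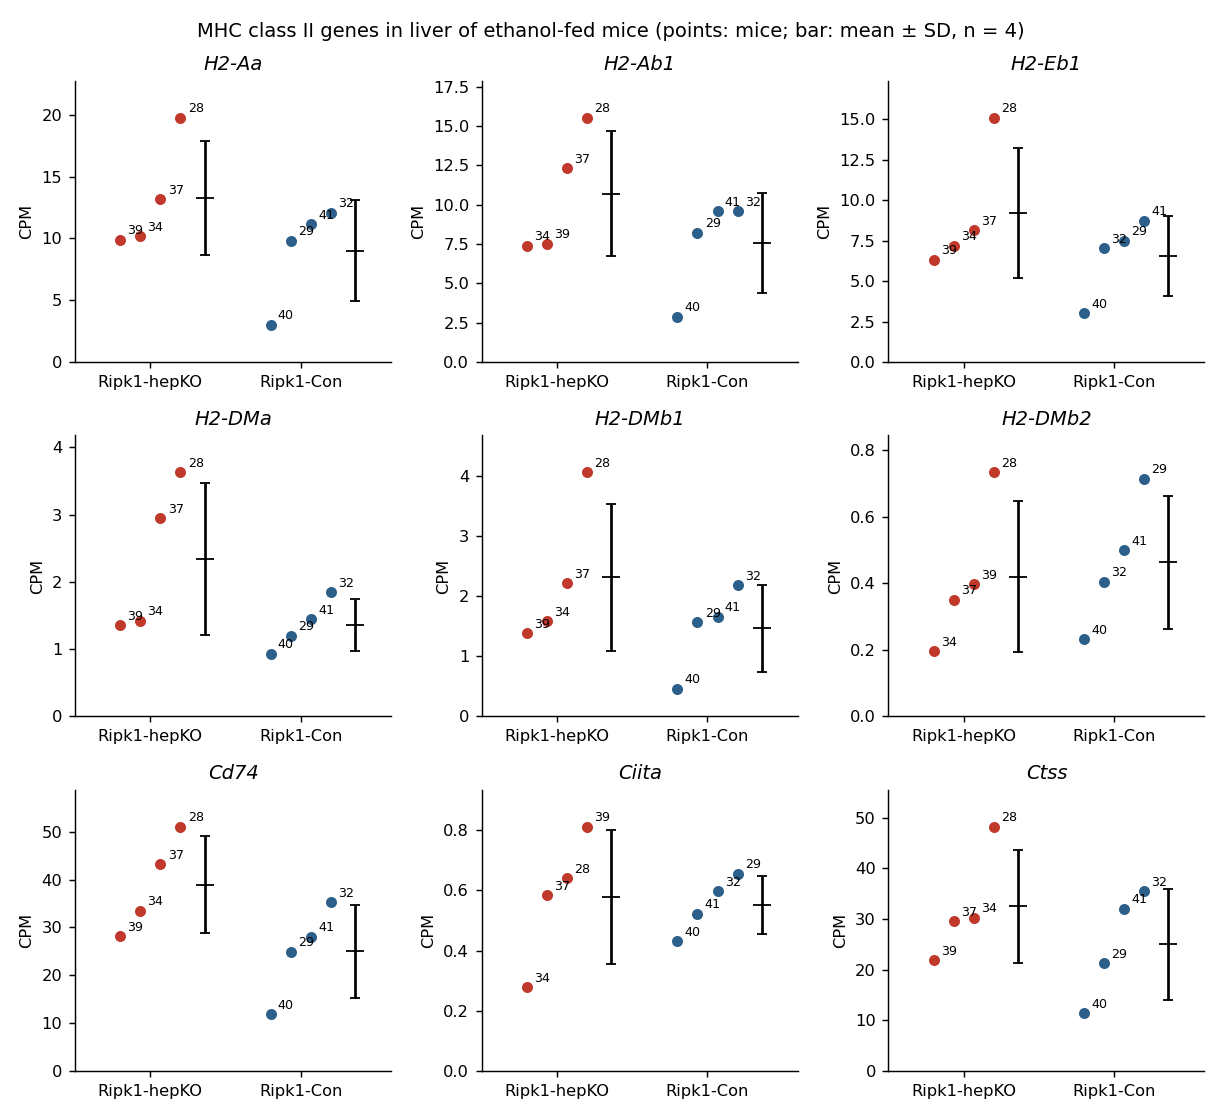
CPM of each member in every mouse, with Ripk1-hepKO left of Ripk1-Con in each panel, points numbered by mouse and bars giving mean ± SD (n = 4 each). Mouse 28 is the top point of 8 panels and mouse 40 the bottom point of 7, and the groups overlap in all 9.

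**Figure D2:**
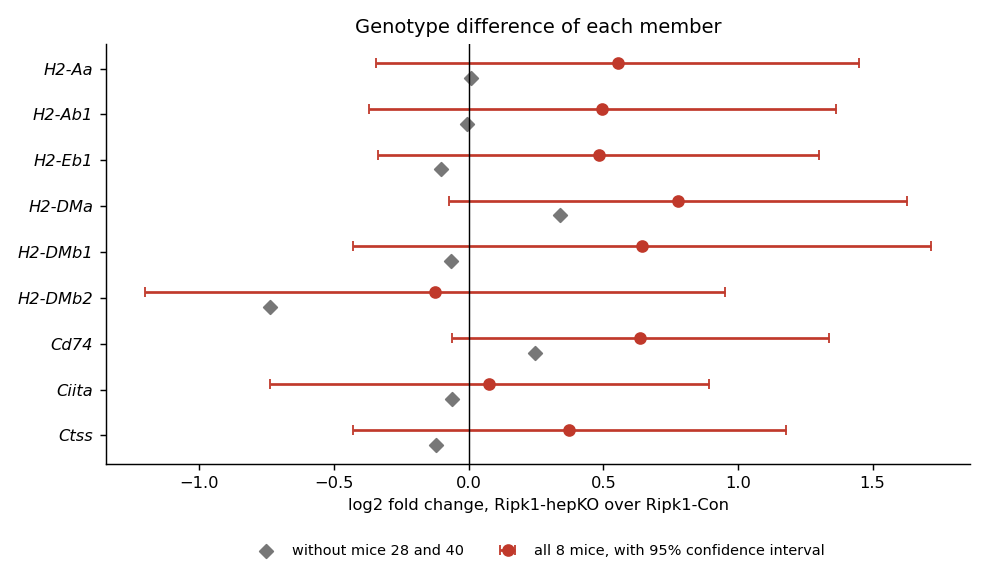
Log2 fold change of each member, Ripk1-hepKO over Ripk1-Con, from edgeR with its 95% confidence interval (circles) and the same without mice 28 and 40 (diamonds). Every interval spans 0, and without these mice the diamonds run from -0.74 for H2-DMb2 to 0.34 for H2-DMa.

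Levels of different members were compared as CPM per kb of exon, and they span a wide range. By the median over 8 mice the order was Ctss (22.0), Cd74 (18.4), H2-Eb1 (3.78), H2-Ab1 (3.46), H2-Aa (2.81), H2-DMb1 (0.967), H2-DMa (0.416), H2-DMb2 (0.229) and Ciita (0.0620). Neighbours in this order overlapped in their ranges over mice, other than H2-DMb2 and Ciita, which did not. Within a mouse the steps were steadier. Cd74 exceeded H2-Eb1, H2-Ab1 exceeded H2-Aa, H2-Aa exceeded H2-DMb1, and H2-DMb1 exceeded H2-DMa in 8 of 8 mice, while Ctss exceeded Cd74 and H2-Eb1 exceeded H2-Ab1 in 6 of 8. With the longest transcript as length, H2-Ab1 stood at 7.34 and moved ahead of H2-Eb1 at 4.402. By that length Cd74 exceeded Ctss in mice 28, 34, 29 and 40 as well, with 36.2 against 35.6 in mouse 28. In mouse 40 H2-DMa then exceeded H2-DMb1 (0.464 against 0.331). These steps within a mouse therefore depend on the length used.

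Ratios between members were narrower than the members' own ranges for the paired chains. H2-Aa over H2-Ab1 per kb averaged 0.852 ± 0.0906 in Ripk1-hepKO, against 0.789 ± 0.0609 in Ripk1-Con (SD, n = 4 each), and its highest value over its lowest was 1.32 while H2-Ab1 itself spanned 5.37-fold. Cd74 per kb exceeded the sum of the 3 chains by a factor of 1.93 ± 0.243 in Ripk1-hepKO and 1.77 ± 0.288 in Ripk1-Con. H2-DMa over the DM beta genes stood at 0.424 ± 0.0922 in Ripk1-hepKO and 0.399 ± 0.177 among Ripk1-Con mice. The groups overlapped in each of these ratios, which are descriptions with no test. The level of each ratio depends on the length used, though the relative spread of H2-Aa over H2-Ab1 does not. In mouse 28 H2-Aa and H2-Ab1 stood at 5.21 and 6.05 per kb of exon. With the longest transcript as length they stood at 6.14 and 12.8 there.

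**Figure D3:**
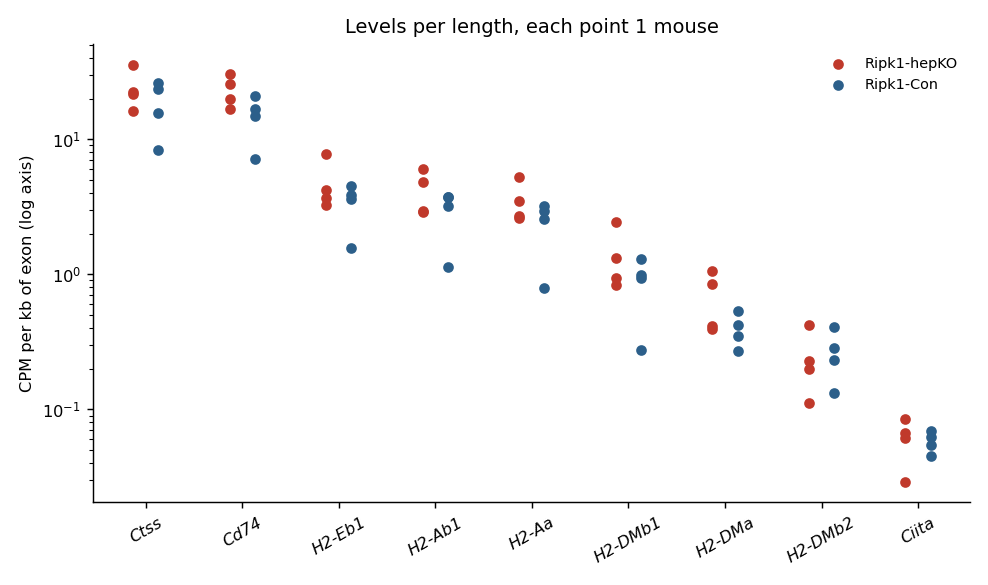
CPM per kb of exon (log axis) of the 9 members, each point 1 mouse, with Ripk1-hepKO left of Ripk1-Con at each gene. The points run from Ctss and Cd74 at the top to Ciita, below 0.1, at the bottom.

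Levels of 7 of the 9 members went up and down together over the mice, while no pair with Ciita or H2-DMb2 passed the test. Over the 36 pairs of members, Pearson's r of log2(CPM + 1) across 8 mice was above 0 in each, and 21 pairs passed (exact two-sided permutation test, Benjamini-Hochberg adjusted over the 36 pairs). None of the pairs with Ciita or with H2-DMb2 was among them, so the 21 are all the pairs of the other 7 members. By Spearman's rho 12 pairs passed.

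H2-Aa and H2-Ab1, which form 1 molecule, had the highest r, 0.98 (rho = 0.90, exact permutation adjusted p = 0.00246 for r). H2-Aa ordered the 8 mice exactly as H2-DMa did (rho = 1, r = 0.79, exact permutation adjusted p = 0.0202 for r). Cd74 and Ctss, which lie on other chromosomes than the chains, had r = 0.97 and 0.95 with H2-Aa. The lowest r among the 21 pairs was 0.77, between H2-DMa and Ctss.

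Ciita had r of 0.12 to 0.63 with the other members, and the pair with the highest was H2-DMb2 (rho = 0.64, exact permutation adjusted p = 0.141 for r). Both genes have few counts. H2-Ab1, one of the genes CIITA is known to switch on, had r = 0.37 with it (rho = 0.36, adjusted exact permutation p = 0.431 for r).

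For some pairs mice 28 and 40 carried much of this pattern. With both left out r stayed at 0.93 for H2-Aa with H2-Ab1 and at 0.94 for H2-Aa with H2-DMb1. For H2-Eb1 with Cd74 r was 0.16 without these mice, against 0.89 with them, so that relation rests on them. In this set of 6 mice 0 of 36 pairs passed. With 6 mice the exact test has few pairings, so even a high r can hardly pass after adjustment. That count therefore cannot tell whether the relations rest on these mice. Leaving out mouse 28 alone left 7 pairs, and leaving out mouse 40 alone left 13.

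**Figure D4:**
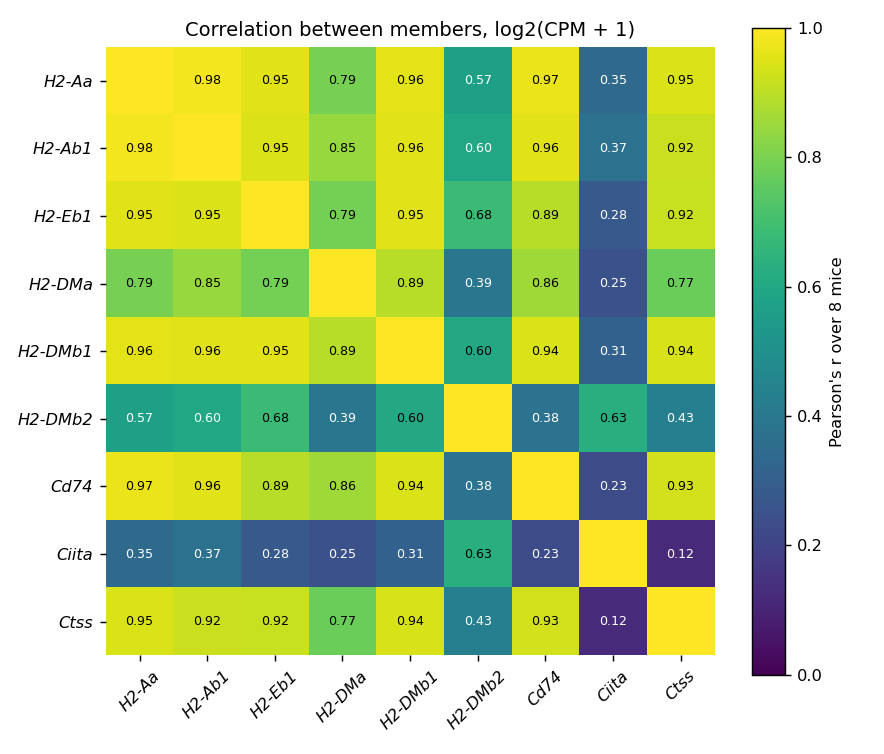
Pearson's r of log2(CPM + 1) over 8 mice for each pair of members, from 0 (dark) to 1 (bright). The rows of Ciita and H2-DMb2 are the darkest, with no r above 0.68, while the other members reach 0.77 to 0.98 with each other.

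Genes outside the list with the same pattern over the mice were named by a set rule, as those with the highest r with the mean z-score of H2-Aa, H2-Ab1, H2-Eb1 and Cd74 across 8 mice, among 11445 genes of at least 1 CPM. The first was Lpl, lipoprotein lipase, with r = 0.99. After it came Itgb2, the beta-2 integrin of leukocytes, Cd300c2, Myof, Tyrobp, a signalling adaptor of myeloid and NK cells, Laptm5, Rac2, Cd44, Ifi30 and Arhgap25, with r of 0.97 to 0.98. The median r of all these genes was -0.01, and 123 of them had r over 0.9. Without mice 28 and 40 the r of the 10 genes ran from 0.56 for Itgb2 to 0.88 for Rac2. None of the 10 passed the test between genotypes (edgeR adjusted p = 0.790 to 0.895).

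Among these 10, Ifi30 also belongs to the class II route, as the reductase GILT that opens disulfide bonds of proteins to be presented. It stood at 14.1, 10.2, 10.5 and 7.44 CPM across Ripk1-hepKO mice 28, 34, 37 and 39, against 8.56, 11.1, 2.72 and 9.78 CPM across Ripk1-Con mice 29, 32, 40 and 41. As for the chains, mouse 28 was highest and mouse 40 lowest, which largely follows from the rule that chose these 10 genes.

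Other genes of processing and editing gave 10 of 13 members tested, 8 above 0 and 2 below, with 0 past the FDR in edgeR and a median log2 fold change of 0.23, which was -0.09 without mice 28 and 40. March8, a ubiquitin ligase that removes class II from the surface, averaged 52.8 ± 8.85 CPM in Ripk1-hepKO and 63.1 ± 4.27 CPM in Ripk1-Con (SD, n = 4 each, edgeR adjusted p = 0.763). Lgmn, the legumain protease, averaged 86.5 ± 42.6 and 59.0 ± 19.3 CPM in the same groups, and Ctsl, cathepsin L, 1379 ± 482 and 1088 ± 469 CPM. H2-Ob, the beta chain of the H2-O inhibitor of H2-DM, averaged 0.345 ± 0.127 CPM in Ripk1-hepKO and 0.258 ± 0.101 CPM in Ripk1-Con. H2-Oa, H2-Eb2 and H2-Ea-ps did not pass the filter.

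The transcription complex was tested in 10 of 10 genes, 5 above 0 and 5 below, with a median of 0.00 and 0 past the FDR in edgeR. Without mice 28 and 40 its median was -0.10. Rfxank, a subunit of RFX, stood at 64.3 CPM in mouse 28 and at 14.7 to 24.1 CPM in the other 7 mice. Rfx5, its DNA-binding partner, averaged 12.7 ± 2.58 CPM in Ripk1-hepKO and 9.93 ± 1.87 CPM in Ripk1-Con (SD, n = 4 each), and Ep300, a histone acetyltransferase, 32.6 ± 3.53 and 37.4 ± 3.96 CPM (edgeR adjusted p = 0.769 and 0.773).

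Interferon-gamma, the cytokine known to induce Ciita, was barely seen, with 6 counts of Ifng in mouse 28, 1 in mouse 34, 4 in mouse 40 and 0 in the other 5. Of its route, 11 of 13 genes were tested, 7 above 0 and 4 below, with a median of 0.10 and 0 past the FDR in edgeR. The median was -0.05 without mice 28 and 40. Cxcl9 averaged 13.8 ± 6.96 CPM in Ripk1-hepKO and 5.72 ± 1.87 CPM in Ripk1-Con, and Gbp2 15.4 ± 10.2 and 6.37 ± 1.92 CPM (SD, n = 4 each, edgeR adjusted p = 0.742 each). Both are targets of this cytokine. Irf2, an interferon regulatory factor, averaged 39.5 ± 5.30 CPM in Ripk1-hepKO and 47.3 ± 6.96 CPM in Ripk1-Con.

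MHC class I genes present peptides from inside the cell and are made by hepatocytes as well. All 15 listed were tested, 12 above 0 and 3 below, with a median of 0.18, which was 0.02 without mice 28 and 40, and 0 past the FDR in edgeR. Psmb8, an immunoproteasome subunit, averaged 24.5 ± 3.64 CPM in Ripk1-hepKO and 19.2 ± 1.49 CPM in Ripk1-Con with groups that did not overlap, as did 2.01% of genes tested in this direction. Tap2, a peptide transporter subunit, averaged 19.5 ± 2.26 and 15.2 ± 1.79 CPM, and Psmb10 19.7 ± 4.73 and 14.2 ± 1.98 CPM (edgeR adjusted p = 0.742 for each of the 3 genes).

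Of the co-stimulators and T cell partners, 8 of 9 were tested, 7 above 0, with a median of 0.25 and 0 past the FDR in edgeR. That median was 0.09 without mice 28 and 40. Cd4, the co-receptor that binds class II, stood at 1.04, 1.59, 0.490 and 0.469 CPM across Ripk1-hepKO mice 28, 34, 37 and 39, against 0.371, 0.307, 0.365 and 0.285 CPM across Ripk1-Con mice 29, 32, 40 and 41. All knockout mice lay above all controls (log2 fold change 1.43 with SE 0.45, adjusted p = 0.742 in edgeR), as in 2.01% of genes tested. Levels of Cd4 were low, at most 0.371 CPM in the controls. Its highest mouse, 34, was the second lowest for H2-Ab1. Cd80 averaged 1.09 ± 0.867 CPM in Ripk1-hepKO and 0.576 ± 0.208 CPM in Ripk1-Con, and Icosl 1.21 ± 0.154 and 0.886 ± 0.382 CPM.

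Markers of the cells that carry class II were read beside it, since in bulk tissue fewer cells of a type and less RNA per cell cannot be told apart. H2-Ab1 was set against the mean log2(CPM + 1) of 10 marker lists. It had its highest r with the list of monocytes and recruited macrophages, 0.95 (rho = 0.90, exact permutation adjusted p = 0.00744 for r over the 10 lists, n = 8). The list of neutrophils followed with r = 0.84 (rho = 0.83, exact permutation adjusted p = 0.0270 for r), and these 2 lists passed by r. By rho the monocyte list passed (exact permutation adjusted p = 0.0456) and the neutrophil list did not (0.0769).

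For Kupffer cells r was 0.84 (rho = 0.67, exact permutation adjusted p = 0.0696 for r, n = 8), for dendritic cells 0.71 (rho = 0.69, adjusted p = 0.0696 for r, and 0.0223 with a pseudocount of 0.25) and for B cells 0.67 (rho = 0.62, adjusted p = 0.106 for r). For the other lists r ran from -0.42 for endothelial cells to 0.74 for cholangiocytes. Without mice 28 and 40, the farthest from the median of H2-Ab1, r with H2-Ab1 was 0.75 (monocytes), 0.51 (neutrophils), 0.48 (Kupffer cells), 0.59 (dendritic cells) and 0.15 (B cells), with 0 lists past the test. Leaving out mouse 28 or mouse 40 alone also left 0 lists, and the neutrophil list passed only without mouse 34 or 41 among the sets that leave out 1 mouse.

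The monocyte and macrophage list was tested in 11 of 11 genes, 10 of them above 0 between genotypes, with a median log2 fold change of 0.25 that was -0.16 without mice 28 and 40. Its level ran from 2.31 to 3.17 in Ripk1-hepKO and from 1.84 to 2.82 in Ripk1-Con. Trem2, a receptor of lipid-associated macrophages, averaged 1.01 ± 0.546 CPM in Ripk1-hepKO and 0.413 ± 0.261 CPM in Ripk1-Con, Cd9 15.7 ± 4.01 and 11.9 ± 2.54 CPM, and Ccr2, the chemokine receptor of monocytes, 2.79 ± 1.58 and 1.64 ± 0.638 CPM (SD, n = 4 each, edgeR adjusted p = 0.750 to 0.770). The part of these cells in the class II levels was not tested.

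The Kupffer cell list was tested in 11 of 11 genes, 9 above 0, with a median of 0.15, and -0.20 without mice 28 and 40. Its level was 4.22 to 4.63 in Ripk1-hepKO and 2.99 to 4.89 in Ripk1-Con, with mouse 40 lowest and mouse 41 highest. C1qa, C1qb and C1qc, complement genes of tissue macrophages, averaged 29.9 ± 5.75, 29.7 ± 3.78 and 29.8 ± 6.13 CPM in Ripk1-hepKO, and 23.5 ± 10.7, 24.3 ± 11.8 and 22.4 ± 12.1 CPM in Ripk1-Con (SD, n = 4 each).

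Markers of dendritic and B cells had low counts in these libraries. The dendritic list was tested in 6 of 10 genes, with a level of 0.990 to 1.39 in Ripk1-hepKO and 0.991 to 1.41 in Ripk1-Con, and Xcr1, Cd209a, Ccr7 and Siglech did not pass the filter. Its median log2 fold change was 0.03, and -0.42 without mice 28 and 40. Clec9a, a marker of cross-presenting dendritic cells, averaged 3.53 ± 0.394 CPM in Ripk1-hepKO and 2.88 ± 0.297 CPM in Ripk1-Con, Itgax 1.45 ± 0.541 and 0.911 ± 0.480 CPM, and Zbtb46 4.82 ± 1.07 and 5.89 ± 1.998 CPM. The B cell list was tested in 5 of 10 genes, with a level of 0.323 to 0.736 in Ripk1-hepKO and 0.274 to 0.643 in Ripk1-Con. Its median log2 fold change was 0.02, and -0.53 without mice 28 and 40. Its defining marker Ms4a1 had 25 counts in mouse 28, 19 in mouse 29, 10 in mouse 40 and 0 in the other 5 mice.

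B cell markers and H2-Ab1 ordered the mice differently in places. Mouse 32, at 9.59 CPM of H2-Ab1 the highest control, had a B cell level of 0.316, close to the 0.274 of mouse 40. Cd22, Cd79b and Cd79a, parts of the B cell receptor complex or its regulators, averaged 1.17 ± 0.568, 0.407 ± 0.108 and 0.371 ± 0.238 CPM in Ripk1-hepKO, and 0.801 ± 0.336, 0.537 ± 0.264 and 0.287 ± 0.156 CPM in Ripk1-Con.

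**Figure D5:**
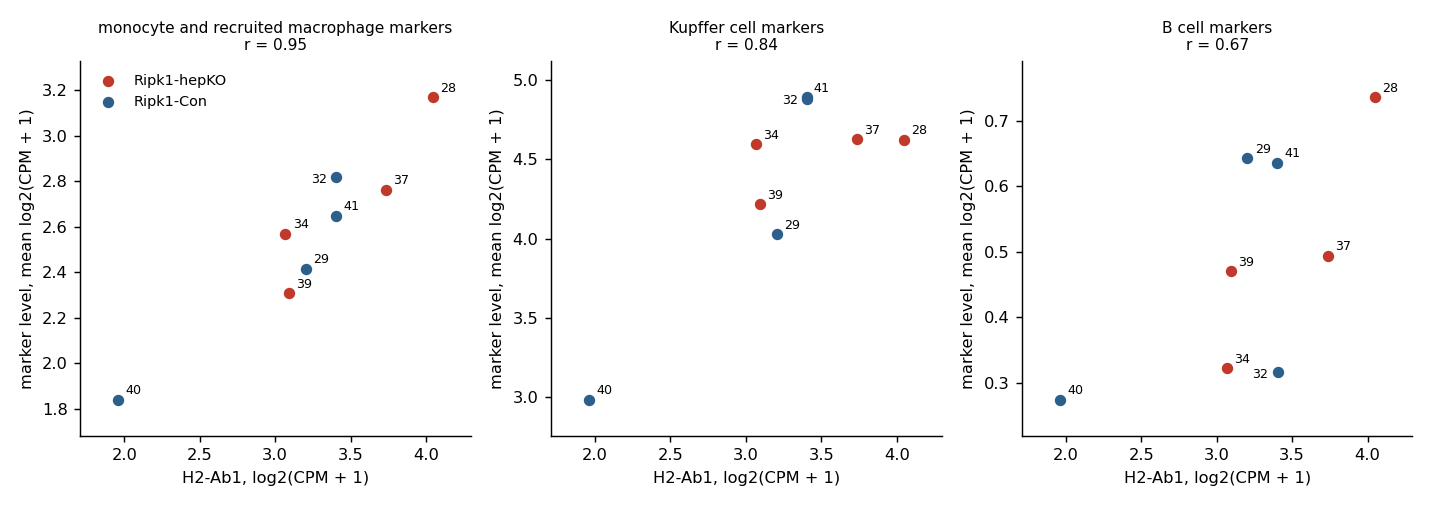
Level of H2-Ab1, as log2(CPM + 1), against the mean log2(CPM + 1) of marker lists of monocytes and recruited macrophages, Kupffer cells and B cells, with points numbered by mouse. Mouse 40 is the lowest on both axes of every panel, and the spread of B cell markers at a like level of H2-Ab1 is wide.

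Neutrophil markers, the other list that passed with H2-Ab1 by r, had 8 of 8 tested genes above 0 between genotypes and a median log2 fold change of 0.61, which was 0.09 without mice 28 and 40. Cxcr2, Mmp9 and S100a8 averaged 2.24 ± 1.48, 1.99 ± 1.16 and 5.30 ± 3.37 CPM in Ripk1-hepKO, and 0.986 ± 0.462, 1.19 ± 0.590 and 2.501 ± 2.01 CPM in Ripk1-Con. Of these, S100a8 encodes a calprotectin subunit and Cxcr2 a chemokine receptor.

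Cell types less tied to class II gave these values. Hepatocyte markers had 1 of 9 genes above 0, a median of -0.22 and a level of 11.4 to 11.8 in Ripk1-hepKO and 11.7 to 11.96 in Ripk1-Con, with mouse 28 lowest. Their median was -0.23 without mice 28 and 40. Alb, the albumin gene, was lower in all knockout mice than in all controls (log2 fold change -0.43, edgeR adjusted p = 0.742), and so was Ttr, transthyretin (-0.22, edgeR adjusted p = 0.769), where 2.09% of genes tested did not overlap in this direction. Apoa1 averaged 5114 ± 463 and Cyp2e1 3086 ± 897 CPM in Ripk1-hepKO, against 6273 ± 513 and 4122 ± 663 CPM in Ripk1-Con. Stellate cell markers had 9 of 9 above 0 and a median of 0.49, which was 0.16 without mouse 28 and 0.12 without mice 28 and 40. Lrat, Col1a2 and Dcn averaged 33.9 ± 10.5, 13.1 ± 4.77 and 208 ± 19.3 CPM in Ripk1-hepKO, against 20.5 ± 8.28, 8.94 ± 2.41 and 180.1 ± 9.37 CPM in Ripk1-Con.

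The T and NK cell list had 4 of 8 above 0 and a median of 0.18, which was 0.14 without mice 28 and 40 and -0.02 without mouse 37. Cd8a, Nkg7 and Lck averaged 0.666 ± 0.319, 0.559 ± 0.136 and 1.13 ± 0.347 CPM in Ripk1-hepKO, against 0.395 ± 0.151, 0.296 ± 0.216 and 0.840 ± 0.293 CPM in Ripk1-Con. The 4 genes below 0 were Klrb1c (log2 fold change -0.51), Cd3e (-0.40), Trac (-0.39) and Cd3g (-0.06). The endothelial list had 6 of 9 above 0 and a median of 0.06. That median was 0.17 without mice 28 and 40, -0.15 without mouse 39 and -0.11 without mouse 32. Pecam1, Cdh5 and Lyve1 averaged 22.1 ± 3.20, 23.5 ± 5.66 and 19.0 ± 4.93 CPM in Ripk1-hepKO, against 18.5 ± 2.97, 19.2 ± 3.44 and 14.5 ± 5.86 CPM in Ripk1-Con. The 3 endothelial genes below 0 were Oit3 (log2 fold change -0.27), Gpr182 (-0.12) and Stab2 (-0.06). The cholangiocyte list had 4 of 4 above 0 and a median of 0.31, which was -0.06 without mouse 28 and -0.16 without mice 28 and 40. Sox9, Epcam and Krt19 averaged 2.85 ± 1.93, 0.948 ± 0.422 and 0.528 ± 0.253 CPM in Ripk1-hepKO, against 1.66 ± 0.400, 0.741 ± 0.258 and 0.439 ± 0.116 CPM in Ripk1-Con (SD, n = 4 each). In all 10 marker lists 0 genes passed the FDR in edgeR, as in the table as a whole.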

How the data were processed

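Per the labels' protocols, liver RNA was extracted with TRIzol, selected for poly(A), marked for strand with dUTP and read from both ends. The authors deposited raw counts per Ensembl gene in 1 table, with no normalization. The submitters' processing notes name STAR 2.5.2b, StringTie 2.2.1, DESeq2 1.38.1 and GRCm38.p6 without their roles, and the counter, annotation and strand setting are not given in the sources used here. Symbols came from GENCODE M21, with 55154 gene IDs matched and 181 not.

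Counts were filtered with filterByExpr, scaled by TMM and tested with edgeR 4.0.16 in R 4.3.3 (robust quasi-likelihood, genotype alone, two-sided, Benjamini-Hochberg over 15234 genes). The test was checked on simulated counts. Members, lists and the rule for named genes were chosen with earlier results of these data known. The rule named all members, Ripk1, the 3 genes of smallest p in each list described and 10 genes of like pattern. Genes named outside it, after their values were seen, are H2-Ob, H2-Ea-ps, Ifng, Ms4a1, Ttr, 4 T and NK cell and 3 endothelial markers, and Ptprc, Csf1r, Adgre1 and Lyz2 of the closing ratios. Protein sequences were not used here, so transcripts were compared. Alternatives were other scalings, filters and tools (DESeq2 1.42.0, limma 3.58.1), other pseudocounts than 1, and mice left out. Since PCR copies were not marked, intervals on counts cover counting error only.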

Additional observations from a re-analysis of the deposited data

Results flagged for a closer look

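Of 50 sets of 4 mice examined (9 members, Ripk1 and 15 list levels in each genotype), 2 held a mouse far from the other 3 of its group, where chance alone would give about 5% of them. The Kupffer cell marker level was 4.22 in Ripk1-hepKO mouse 39, against 4.595 to 4.63 in the other 3 knockout mice. The endothelial marker level was 3.82 in Ripk1-Con mouse 32, against 4.55 to 4.62 in the other 3 controls. No member of the class II list held such a mouse in either genotype.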

How the results depend on the processing

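The count of members past the FDR was 0 under each alternative run. Members with an unadjusted p under 0.05 numbered 0 with edgeR as reported, 1 with the DESeq2 Wald test (Cd74) and 2 with library size alone (Cd74 and H2-DMa). They were H2-DMa without mouse 34 and both genes without mouse 39 or 32. The count of all genes past the FDR was 36 with the DESeq2 Wald test, none of them a member (lowest member adjusted p = 0.630), and 0 under the other alternatives. H2-Aa, H2-DMa and Cd74 kept a log2 fold change above 0 under each alternative (0.0090 to 0.73, 0.34 to 0.97 and 0.25 to 0.85). Without mice 28 and 40 the sign turned for H2-Ab1 (-0.0080), H2-Eb1 (-0.10), H2-DMb1 (-0.067), Ctss (-0.12) and Ciita (-0.062). Ciita also turned with voom and sample quality weights (-0.11), without mouse 39 (-0.12) and without mouse 40 (-0.0089), and H2-DMb2 turned without mouse 34 (0.11) and mouse 29 (0.15). With single mice left out Ciita ran from -0.12 to 0.30 and H2-DMb2 from -0.54 to 0.15. The cause was not tested. Pairs of members that passed numbered 7 (without mouse 28) to 21 when single mice were left out. The number was 0 without mice 28 and 40, where the exact test can hardly pass a pair with the mice that remain. Marker lists that passed with H2-Ab1 numbered 3 with a pseudocount of 0.25 (dendritic cells added, r = 0.83, adjusted p = 0.0223, against 0.326 with a pseudocount of 5), 1 with library size alone, 0 to 2 with single mice left out, and 0 without mice 28 and 40. The neutrophil relation did not pass without mouse 28, 37, 39, 29, 32 or 40 (adjusted p of 0.0526 to 0.393), and that of monocytes did not without mouse 28 or 40 (0.0595 each). With hepatocyte markers, r of H2-Ab1 ran from -0.26 to 0.33 with single mice left out and turned to 0.33 without mouse 28, and without both mice to 0.51 with them and to -0.44 with stellate markers. With the longest transcript as length, 7 of 9 members kept their place in the order of medians. No paired analysis was possible because the mouse numbers are not shared between the genotypes. Depth limits Ciita and H2-DMb2, which had under 50 counts in all mice, and H2-DMa and H2-DMb1 in mouse 40, with 28 and 14 counts.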

Other observations

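Set against Ptprc, the leukocyte antigen CD45, which was chosen after the values were seen, Cd74 did not overlap between the genotypes. Cd74 over Ptprc was 3.47, 2.56, 2.78 and 2.44 across Ripk1-hepKO mice 28, 34, 37 and 39, against 1.94, 2.07, 2.13 and 1.82 across Ripk1-Con mice 29, 32, 40 and 41. Ptprc itself stood at 11.5 to 15.5 CPM in Ripk1-hepKO and 5.58 to 17.04 CPM in Ripk1-Con. Control mouse 40, the lowest for most class II genes, was the highest of the controls on this ratio. Over Csf1r, the macrophage growth factor receptor, Cd74 was 0.798 to 1.39 in Ripk1-hepKO and 0.561 to 0.780 in Ripk1-Con, again without overlap. Over Itgb2, Adgre1, Lyz2 and C1qa the groups overlapped. H2-Ab1 overlapped between the genotypes over each of these 6 genes, and H2-Aa did over 5, the exception being Ptprc (0.779 to 1.34 in Ripk1-hepKO and 0.542 to 0.766 in Ripk1-Con). Of 18 ratios computed, these 3 did not overlap, and they have no test. Over all other genes tested, not matched for their likeness to the divisor, the ratio was without overlap and higher in Ripk1-hepKO for 0.204% over Ptprc and 0.144% over Csf1r. It was without overlap and lower for 1.03% and 0.44%. Mouse 40, the lowest for both divisors (5.58 CPM of Ptprc and 15.2 CPM of Csf1r), has raised ratios for genes that are not low in it. These shares therefore cannot tell whether the 3 ratios stand out.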
